A study of Mus musculus with 6 samples.

Results

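Interferon-induced genes and Irf factors are described here across 6 mouse kidney arrays. Members were all non-control probes whose gene name in the scanner files began with Ifi followed by a digit or t, Oas, Irf with a digit, Isg, Gbp with a digit, Iigp or Irgm, or was on a short list of single names that includes Ifih1, Igtp, Mx1, Mx2 and Stat2. The rule took 98 of 41174 probes, which belong to 67 genes, and 57 of these genes passed the signal filter among 19611 genes in all. The names also brought in Irf2bp1, Irf2bp2, Irf2bpl, Isg20l2, Ifitm5 and Ifitm10, which are not themselves Irf factors or classical interferon-induced genes. The study compared kidneys of mice lacking Gpr97 with wild-type kidneys, after ischaemia/reperfusion injury, a stop of renal blood flow that is later released, or after sham surgery. Gpr97 is an adhesion G protein-coupled receptor, now named Adgrg3. The groups were Gpr97-deficient injured (1 array), Gpr97-deficient sham (1 array), wild-type injured (2 arrays) and wild-type sham (2 arrays), all labelled male. Strain, age, the kind of Gpr97 allele, the length of ischaemia and the time of sampling were not stated in the labels. The sample titles carry a different number for each array, but the labels do not say that these are separate animals. Part of the spread between arrays of a group may therefore be technical.

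Interferons are cytokines released when cells sense nucleic acids of viruses or of damaged cells, and, for interferon gamma, by activated T and NK cells. Type I interferons act through a complex with Stat2 and Irf9, which binds the interferon-stimulated response element (ISRE) in promoters. Interferon gamma acts through the gamma-activated site (GAS) and induces the Irg and Gbp GTPases, antigen presentation genes and Irf1. Most of the induced proteins restrict microbes inside cells.

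The promoters below show these letters in members from the families that the results turn on. RefSeq windows (GRCm38.p6, 250 bases before each start site) matched 50 of the 67 members, and those not matched include Gbp4, Gbp6, Gbp8, Gbp9, Ifi204, Ifi27l1, Ifi27l2a, Ifi27l2b, Iigp1, Mx1, Mx2, Oas1b, Oas1d, Oas1e and Oas2. Capitals mark the ISRE core, searched as GAAA, any 2 bases and GAAA, and the GAS, searched as TTCNNNGAA, each on both strands. Matches of the 2 motifs overlapped one another in 18 of 32851 windows, none of them a member's.
Isg15, chr4:156200855-156200916, minus strand: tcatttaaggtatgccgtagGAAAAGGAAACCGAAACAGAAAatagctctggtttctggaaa
Oas1a, chr5:120907526-120907643, minus strand: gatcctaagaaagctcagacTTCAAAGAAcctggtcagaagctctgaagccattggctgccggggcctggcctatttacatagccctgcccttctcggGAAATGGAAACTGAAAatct
Ifit3, chr19:34583353-34583436, plus strand: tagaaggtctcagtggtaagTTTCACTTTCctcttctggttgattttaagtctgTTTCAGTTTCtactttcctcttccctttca
Irgm1, chr11:48871421-48871470, minus strand: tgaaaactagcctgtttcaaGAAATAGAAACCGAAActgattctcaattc
Igtp, chr11:58199491-58199551, plus strand: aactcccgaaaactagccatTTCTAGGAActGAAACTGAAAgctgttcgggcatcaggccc
Irgm2, chr11:58214882-58214942, plus strand: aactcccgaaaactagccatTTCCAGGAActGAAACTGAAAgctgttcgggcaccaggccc
Isg20, chr7:78913331-78913379, plus strand: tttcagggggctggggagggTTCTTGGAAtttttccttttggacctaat
Ifitm3, chr7:141010745-141010844, minus strand: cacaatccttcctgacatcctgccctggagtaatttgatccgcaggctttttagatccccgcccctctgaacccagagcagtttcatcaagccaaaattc
Isg15 carried 3 overlapping ISRE cores, and Igtp and Irgm2 carried the same ISRE and GAS arrangement, with 59 of 61 bases identical. Isg20 showed a GAS match alone and the Ifitm3 window neither motif. An ISRE core was found for 20 of the 50 members (40%), against 3.46% of 27025 genes, and a GAS for 13 of 50 (26.0%), against 8.13%. By family, the ISRE core was present in 5 of 5 Gbp genes, 3 of 4 Irg genes and 4 of 8 Oas genes. It was also present in 1 of 7 Ifitm and 1 of 8 Irf genes. The GAS was present in 2 of 5 Gbp genes and 2 of 4 Irg genes. It was also present in 1 of 8 Oas, 1 of 7 Ifitm and 3 of 8 Irf genes. These matches describe letters in a window and show no binding.

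All levels are log2 processed signals minus the 75th percentile of the array, so 0 is that percentile, and a level of 1 probe is not set against that of another. Between 62.9% and 71.0% of probes were well above background, no probe was saturated, and array pairs correlated at 0.938 to 0.980 over all probes. The arrays lay on 2 slides: slide 1 held sham array 1 and injured array 2 of the wild type, and slide 2 the other 4, so both Gpr97-deficient arrays share a slide. Adgrg3 was at -5.71, not above background, and -5.34 on the Gpr97-deficient arrays, against 0.05 to 1.25 on the wild-type arrays. Xist, transcribed from the inactive X chromosome of females, was at 4.10 on wild-type injured array 1, although that array is labelled male, and at -5.38 or below on the other 5. The 2 wild-type injured arrays thus differed widely in Xist and are unlikely to be repeats of 1 RNA sample. Without wild-type injured array 1 the members' median injury change was 0.088. Then 4 rather than 2 members were at least 2-fold higher after injury without overlap, while the share over all genes was 3.83% rather than 2.59%. In whole tissue, fewer cells of a type and less RNA per cell cannot be told apart.

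After injury the members did not move as 1 group. Over both genotypes 35 were higher and 22 lower on injured than on sham arrays, with a median log2 change of 0.12 against -0.04 over all genes tested, of which 8820 were higher. The difference was within 0.5 log2 units for 38 of the 57 (66.7%), against 76.4% of all genes. With limma and Benjamini-Hochberg adjustment over all genes, 0 of 57 members passed an adjusted p of 0.05, as did 0% of the 19611 genes, and the lowest adjusted p of a member was 0.257. At an unadjusted p under 0.05 stood 10 members (17.5%), 9 of them higher, against 2409 genes (12.3%). Without overlap between the 3 injured and the 3 sham arrays, 14 members were higher, where the share over all genes was 10.1%, and 3 were lower, where it was 12.4%. Of these, 2 members were higher by at least 2-fold (all genes 2.59%) and 0 lower (all genes 2.16%). Of the 2, Ifi27l2b, which also had the lowest adjusted p, passed the signal filter through the injured arrays alone. With a signal above background required on all 6 arrays, 1 member was left (all genes 2.35%). The members' median depends on 1 array and was -0.038 when wild-type sham array 1 was left out. With normexp background correction it was 0.14, below the median of all genes, which that correction moved to 0.20. Injury changes with normexp correction given below are not adjusted for that shift.

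**Figure D1:**
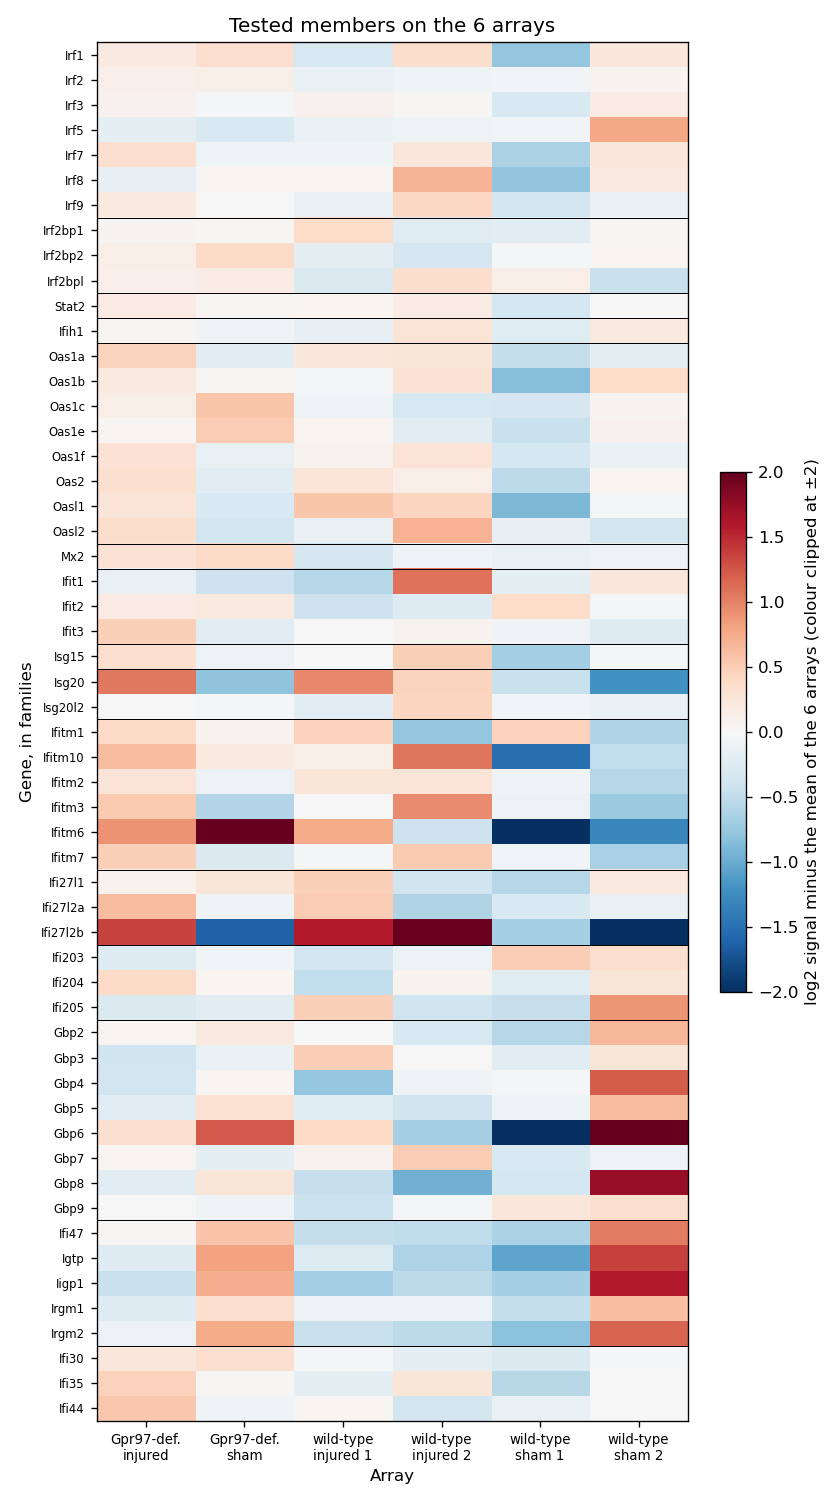
Rows are 55 tested members in families and columns the 6 arrays; colour is the log2 signal minus the gene's mean over the 6 arrays, clipped at 2 log2 units either way. The Irg GTPases at the lower end are red on wild-type sham array 2 and on the Gpr97-deficient sham array, and Isg20 and Ifi27l2b are red on the 3 injured arrays.

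**Figure D2:**
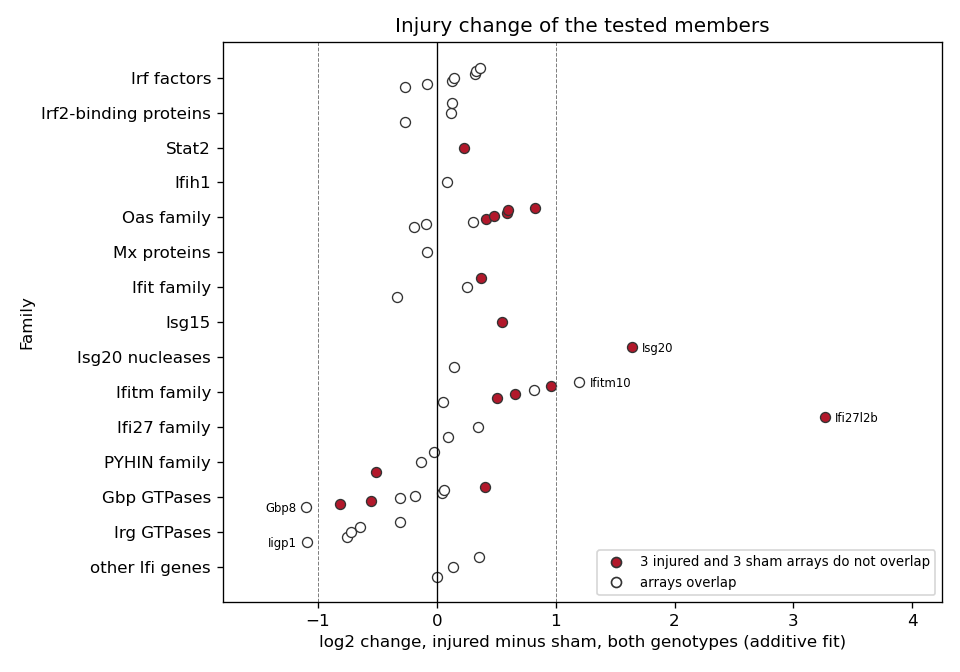
Each point is a tested member's log2 change, injured minus sham over both genotypes (horizontal axis), in its family (vertical axis); filled points are members whose 3 injured and 3 sham arrays do not overlap, and dashed lines mark a 2-fold difference. The 6 Ifitm genes lie right of 0 and the 5 Irg genes left of it, and Gbp4, Gbp5, Gbp8 and Gbp9 move to 0 or right of it with normexp correction. The Ifi27l2b point is a fitted value, since its sham levels were not above background.

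The Irf factors, the transcription factors that switch on interferons and their target genes, differed little between injured and sham arrays. Of the 8 tested, 5 were higher and 3 lower after injury, with changes between -0.27 and 0.37 and a median of 0.14, or -0.02 with normexp correction. Irf1, induced by interferon gamma and a driver of antigen presentation genes, had levels of 2.40 on the Gpr97-deficient injured array and 1.90 and 2.58 on the wild-type injured arrays, against 2.56 on the Gpr97-deficient sham array and 1.45 and 2.43 on the wild-type sham arrays. Wild-type sham array 1 was the low one, and the other 5 overlapped. Irf7, which amplifies type I interferon production, stood at -1.76, -2.19 and -1.88 on the same injured arrays, against -2.20, -2.73 and -1.89 on the sham arrays. Irf8, a factor of the macrophage and dendritic cell lineages, was at 1.05, 1.26 and 1.89 after injury, against 1.26, 0.43 and 1.42 after sham. Both sets overlapped, and again wild-type sham array 1 was lowest. Irf9, the DNA-binding partner of Stat2, read 0.64, 0.31 and 0.85 on injured arrays, against 0.45, 0.07 and 0.30 on sham arrays. Irf3, the constitutive factor that acts after nucleic acid sensing, was at 4.12, 4.11 and 4.06 after injury, within the sham arrays' 3.99, 3.73 and 4.19. Irf2, an antagonist of Irf1, differed by -0.08, and Irf5, which acts after Toll-like receptors, by -0.27. Irf4, a lymphocyte factor, was above background on 1 array only and was not tested. The lowest adjusted p among Irf factors was 0.586. Among the corepressors that bind Irf2, Irf2bp2 differed by -0.27, Irf2bp1 by 0.13 and Irf2bpl by 0.12.

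Stat2, a signal transducer of type I interferon receptors, was at 0.45, 0.32 and 0.43 on injured arrays, against 0.30, -0.08 and 0.28 on sham arrays, apart without overlap by 0.23 ± 0.17 (SE, adjusted p = 0.633). Ifih1, the cytosolic sensor of long double-stranded RNA also called MDA5, differed by 0.09 ± 0.21.

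The Oas genes, whose products make 2-5A and so activate RNase L on sensing double-stranded RNA, were mostly higher after injury. Of 8 tested, 6 were higher (7 with the other 3 scalings). The median change was 0.45, against -0.04 over all genes, or 0.55 with normexp correction, against 0.20 over all genes. For 3 the unadjusted p was under 0.05, but none passed the adjusted test (limma, lowest adjusted p 0.328). Oas1a was at -0.66 on the Gpr97-deficient injured array and -0.89 and -0.86 on the wild-type injured arrays, against -1.32 on the Gpr97-deficient sham array and -1.58 and -1.28 on the wild-type sham arrays. All 3 injured arrays were above all 3 sham arrays, by 0.59 ± 0.16 log2 units (SE). Oasl1, a relative that represses Irf7 translation in mice, was at -1.44, -1.15 and -1.27 after injury, against -2.01, -2.60 and -1.72 after sham. These too did not overlap, and the change was 0.82 ± 0.28. Oasl2 was at 0.16 or above on injured arrays, against 0.15 or below on sham arrays, a gap of only 0.01 between the nearest arrays. Oas1f (change 0.42) and Oas2 (0.48) were also apart without overlap, Oas1b (0.31) was not, and Oas1c (-0.19) and Oas1e (-0.09) were the other two. Wild-type sham array 1 was the lowest of the 6 arrays for 7 of 8 Oas genes, and without it the median change was 0.34. Oas1d, Oas1g, Oas1h and Oas3 were never above background.

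The other antiviral effectors gave small differences, apart from Isg20. Isg15, a ubiquitin-like modifier, was at -0.29, -0.60 and -0.14 on injured arrays, against -0.73, -1.29 and -0.65 on sham arrays (change 0.55 ± 0.25 SE, adjusted p = 0.458). Its arrays did not overlap, though 0.05 separated the nearest pair. Ifit3, of the family that binds viral RNA, was at 2.20, 1.74 and 1.79 against 1.498, 1.66 and 1.47, also without overlap. Ifit1 spread over more than 1 log2 unit within the wild-type injured pair, at -1.82 and -0.17, and differed by 0.25 ± 0.46. Ifit2 differed by -0.34, or 0.07 with normexp correction. Mx2, an antiviral dynamin-like GTPase, differed by -0.08 (0.32 with normexp correction), and Mx1 was not above background on any array.

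Isg20, an interferon-induced exonuclease of RNA, was 1 of the 2 members at least 2-fold higher after injury without overlap. Its level was -0.61 on the Gpr97-deficient injured array and -0.70 and -1.21 on the wild-type injured arrays, against -2.47 on the Gpr97-deficient sham array and -2.10 and -2.88 on the wild-type sham arrays. Every injured array was above every sham array, by 1.64 ± 0.29 log2 units (SE, adjusted p = 0.262). Within the slides, the wild-type difference was 0.89 on slide 1 and 2.18 on slide 2, and leaving out each array in turn gave 1.45 to 1.89. The related nuclease Isg20l2 differed by 0.14. The other was Ifi27l2b, of the Ifi27 family of small membrane proteins, with levels of -2.70, -2.47 and -2.08 on the injured arrays. It was not above background on the sham arrays, at -5.67, -4.71 and -6.67, so injured arrays were at least 6.94-fold higher, measured against the lowest signal above background or the probe's own (adjusted p = 0.257). It passed the signal filter through the injured arrays alone, and its fitted log2 change was 1.40 with normexp correction. Of its relatives, Ifi27l1, now Ifi27, differed by 0.09 and Ifi27l2a by 0.35, both with overlap.

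**Figure D3:**
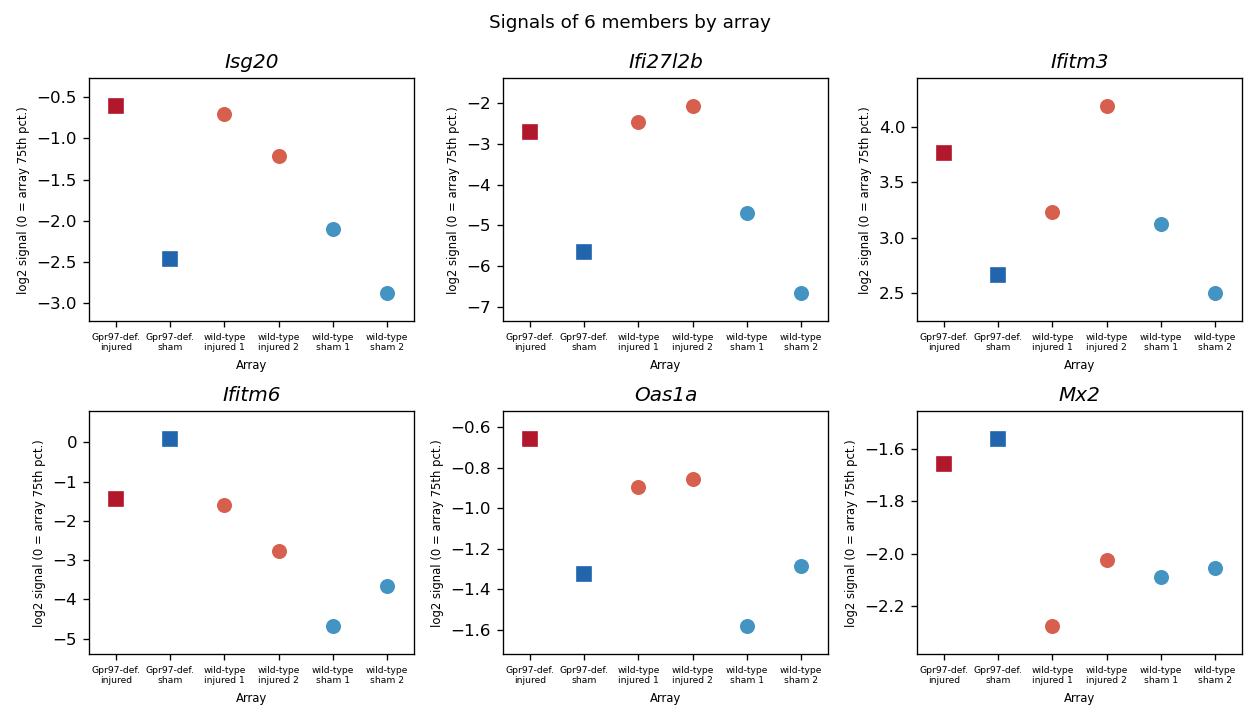
Each panel plots the log2 signal of 1 member (vertical axis, 0 at the array's 75th percentile) on the 6 arrays; squares are Gpr97-deficient and circles wild-type arrays, red injured and blue sham. Isg20, Ifi27l2b, Ifitm3 and Oas1a have their 3 injured arrays above their 3 sham arrays, and Ifitm6 and Mx2 have their 2 Gpr97-deficient arrays above their 4 wild-type arrays.

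The Ifitm genes, which encode membrane proteins that block virus entry, were higher after injury in 6 of 6 tested over both genotypes. The median change was 0.74 (0.50 with normexp correction), 4 had an unadjusted p under 0.05 and none passed the adjusted test. In each genotype alone 5 were higher and 1 lower. Ifitm1 differed by 0.05 over both genotypes and by -0.09 in wild type. Ifitm6 differed by 0.82 over both genotypes, but by 1.99 in wild type and -1.52 in Gpr97 deficiency. Ifitm3 was at 3.77 on the Gpr97-deficient injured array and 3.23 and 4.19 on the wild-type injured arrays, against 2.66 on the Gpr97-deficient sham array and 3.13 and 2.50 on the wild-type sham arrays. The groups did not overlap, and the change was 0.96 ± 0.33 (SE, adjusted p = 0.374). Ifitm2 was at 2.73, 2.71 and 2.72 after injury, against 2.34, 2.40 and 1.90 after sham, and Ifitm7 at 3.43, 2.93 and 3.48, against 2.66, 2.90 and 2.30. Both were without overlap, by 0.50 and 0.66. Ifitm1 was at 1.55, 1.62 and 0.39 on injured arrays, against 1.23, 1.61 and 0.56 on sham arrays, with the low values on wild-type injured array 2 and wild-type sham array 2. Ifitm10 overlapped, at -2.90, -3.40 and -2.44 against -3.32, -5.02 and -3.999, and its fitted difference of 1.20 ± 0.46 includes wild-type sham array 1, where it was not above background. Tubular injury markers moved with these genes: all 12 were higher after injury, with a summed level of 9.11 to 9.69 on injured arrays, against 6.96 to 7.75 on sham arrays. The part of such cell changes in the Ifitm result was not tested.

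The Ifi200 genes, which encode DNA-binding PYHIN proteins, had 3 tested members. Ifi203 was at -0.32, -0.45 and -0.19 on injured arrays, against -0.12, 0.43 and 0.26 on sham arrays, without overlap and by -0.51 ± 0.19 (SE, adjusted p = 0.393). Ifi204 differed by -0.03. Ifi205 was above background on 2 arrays only, so no direction is given for it. Among other Ifi genes, the lysosomal reductase Ifi30 differed by 0.01, Ifi35 by 0.36 and Ifi44 by 0.14.

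The Gbp genes, guanylate-binding GTPases that attack the vacuoles of intracellular microbes, did not share a direction. Of 8 tested, 3 were higher and 5 lower after injury, with a median of -0.25, against -0.04 over all genes. With normexp correction 7 were higher and the median was 0.14, below the 0.20 over all genes. Gbp4 was at -3.57 on the Gpr97-deficient injured array and -3.97 and -3.26 on the wild-type injured arrays, against -3.16 on the Gpr97-deficient sham array and -3.22 and -1.99 on the wild-type sham arrays. The injured arrays were lower without overlap, by -0.81 ± 0.41 (SE, adjusted p = 0.497), or 0.14 with normexp correction. Gbp5 was at -2.22, -2.25 and -2.41 against -1.71, -2.11 and -1.39. Gbp7 was higher, at -1.01, -0.99 and -0.56 against -1.25, -1.37 and -1.17. Gbp8 differed by -1.10 ± 0.60 (0.22 with normexp correction) and was above background on 4 arrays. Gbp6 had the widest spread of the family within a group, at -6.34 and -0.68 on the 2 wild-type sham arrays. Gbp2 and Gbp3 differed by -0.18 and 0.06.

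The Irg genes, immunity-related GTPases induced by interferon gamma, were lower after injury in 5 of 5, with a median of -0.72 (-0.85 with normexp correction) and an unadjusted p of 0.125 or more. Iigp1 was at 0.48 on the Gpr97-deficient injured array and 0.23 and 0.40 on the wild-type injured arrays, against 1.64 on the Gpr97-deficient sham array and 0.26 and 2.50 on the wild-type sham arrays. Igtp was at 2.03, 2.01 and 1.67 after injury, against 3.09, 1.24 and 3.66 after sham. The 3 injured arrays lay close together for both genes, and the sham arrays lay apart, with the second wild-type one highest and the first at or below the injured level. Irgm2 (1.78, 1.46 and 1.38 against 2.64, 1.08 and 3.06), Irgm1 and Ifi47 had the same order. Between the wild-type sham arrays, 2 minus 1, the median Irg difference was 1.98, against 0.44 over all members and -0.05 over all genes. Between the wild-type injured arrays, 1 minus 2, it was 0.04.

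Which sham array is left out therefore decides the size of the Irg change, though every Irg gene kept its sign with each array left out in turn. Without wild-type sham array 2 the median injury change was -0.16, and -1.30 with sham array 1 of that genotype left out instead. Leaving out array 1, 7 members were at least 2-fold lower after injury without overlap (Gbp4, Gbp6, Gbp8, Ifi47, Igtp, Iigp1 and Irgm2), against 0 with all arrays. The share over all genes was 3.28% without array 1, against 2.16% with all arrays. The direction differed between the slides. On slide 1 every Irg gene was higher on the wild-type injured than on the wild-type sham array, and on slide 2 every one was lower. For Iigp1 the wild-type change was 0.14 on slide 1 and -2.27 on slide 2. The Irg and Gbp genes were highest on wild-type sham array 2 in 11 of 13 cases, against 16.6% of all genes, and 29 of 57 members (50.9%) were lowest on wild-type sham array 1, against 15.5% of all genes. The 2 sham arrays lie on different slides, so array and slide cannot be told apart here.

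Interferon gamma, the inducer of these GTPases, was above background on 2 arrays: Ifng read -2.94 on wild-type sham array 2 and -4.44 on the sham array lacking Gpr97, and -6.60 to -5.70 on the other 4. The same 2 sham arrays had the highest Irg levels. T and NK cell markers had a summed level of -0.35, 0.46 and -0.63 on the injured arrays, against 0.45, -0.24 and 2.16 on the sham arrays. Of 14 tested markers 13 were lower after injury, and no marker of the list was below background on all arrays. Of 15 with a probe, however, 10 were not above background on wild-type injured array 2 and 10 on wild-type sham array 1. On the other arrays it was 1 to 4, so the sums of those 2 arrays rest more on background signal. Antigen presentation genes summed to 7.64, 7.66 and 6.92 against 7.97, 6.86 and 8.24. Both sums were highest on wild-type sham array 2. B and plasma cell markers, too, were highest there, at a summed 3.56, with Ms4a1, Pax5, Cd22 and Blk below background on all arrays. The part of these cells in the GTPase levels was not tested.

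**Figure D4:**
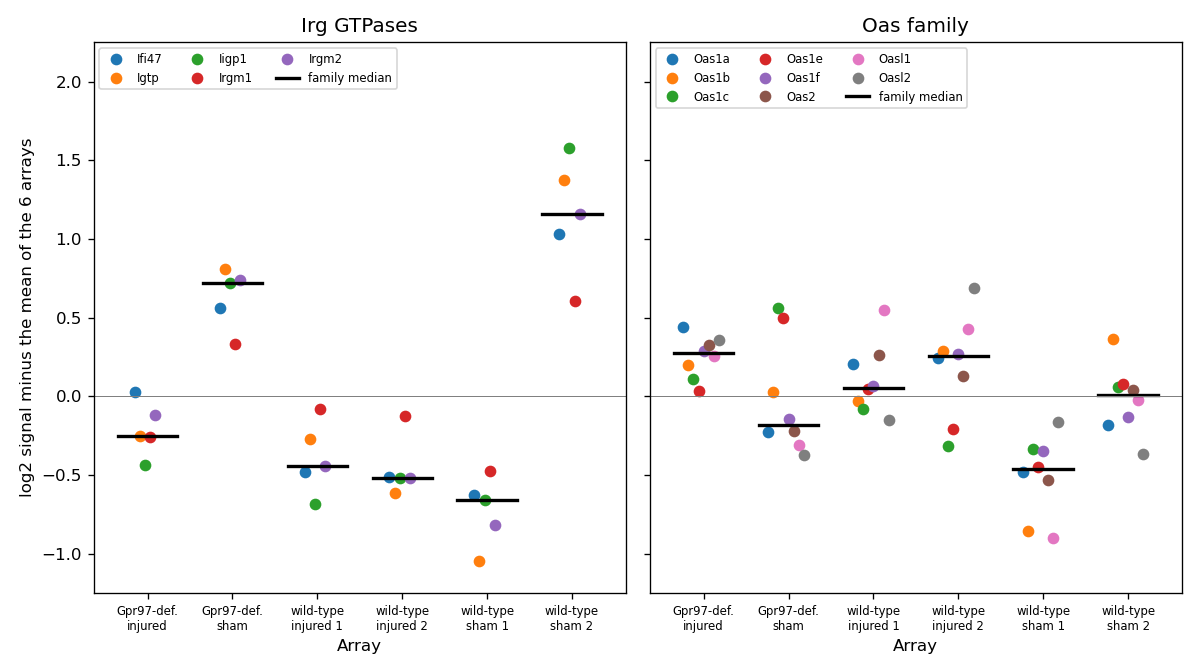
Points are genes of the Irg family (left) and the Oas family (right), as log2 signal minus the gene's mean over the 6 arrays (vertical axis), and bars are family medians on each array. Irg medians are highest on wild-type sham array 2 (1.16), then the Gpr97-deficient sham array (0.72); Oas medians are lowest on wild-type sham array 1 (-0.47).

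In wild-type kidneys alone, 0 of 57 members were called by limma (all genes 0%), and 34 were higher and 23 lower after injury, with a median of 0.18 against -0.03 over all genes; at an unadjusted p under 0.05 stood 4 members and 1250 genes. In Gpr97-deficient kidneys 31 were higher and 26 lower, with a median of 0.10 against -0.05, and limma again called 0 (all genes 0%), with 2 members and 536 genes at an unadjusted p under 0.05. That comparison has 1 array a group and borrows its spread from the wild-type arrays. By size, 3 members were at least 2-fold higher in the Gpr97-deficient pair (all genes 4.6%) and 3 at least 2-fold lower (all genes 5.27%). The higher ones were Ifi27l2b, with at least 7.26-fold since its sham level was not above background, Isg20 (1.86) and Ifitm3 (1.10), and the lower ones Ifitm6 (-1.52), Iigp1 (-1.16) and Igtp (-1.06). In wild type Ifi27l2b was at least 6.79-fold higher, and the changes of the other 5 genes, in the same order, were 1.54, 0.89, 1.99, -1.06 and -0.60. The 1.99 of Ifitm6 includes wild-type sham array 1, where it was not above background. The 2 injury changes share no arrays: across the 57 members Pearson's r was 0.60 and Spearman's rho 0.56, and 42 (73.7%) had the same sign, against 0.47, 0.48 and 68.1% over all genes, which are not independent replicates. The difference between the 2 injury changes was called for 0 members (limma, all genes 0%), with 1 member, Ifitm6, and 291 genes at an unadjusted p under 0.05.

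**Figure D5:**
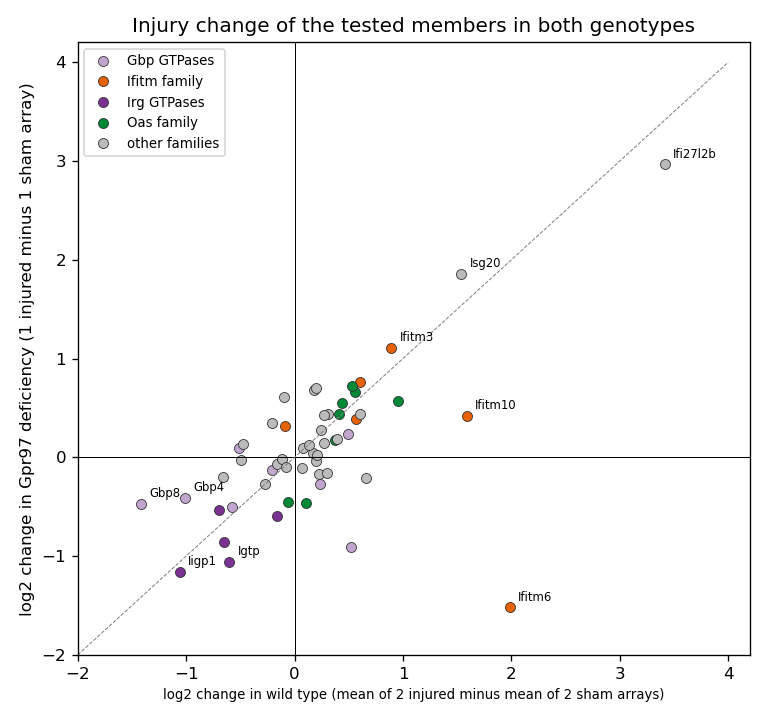
Each point is a tested member: its log2 injury change in wild type (horizontal axis, 2 injured against 2 sham arrays) and in Gpr97 deficiency (vertical axis, 1 injured against 1 sham array), with the dashed line at equality. Ifi27l2b, whose sham levels were not above background so that its place is uncertain, and Isg20 lie far right and high, and Ifitm6 lies low at 1.99 in wild type and -1.52 in Gpr97 deficiency.

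Between Gpr97-deficient and wild-type kidneys over both surgeries, 41 members were higher and 16 lower, with a median of 0.16 against -0.01 over all genes. Within 0.5 log2 units were 52 of 57 (91.2%), against 83.5% of all genes. Within slide 2 alone, 33 were higher and 24 lower. Macrophage markers were higher in Gpr97 deficiency in 15 of 15, with a summed level of 5.28 to 5.48 on Gpr97-deficient arrays, against 4.15 to 5.14 on wild-type arrays, and endothelial markers in 10 of 10, at 5.88 to 6.03 against 5.44 to 5.64. Within slide 2 alone, 13 of 15 macrophage markers were higher, with a median of 0.25, against 0.58 over all arrays. Endothelial markers were higher there in 10 of 10, with a median of 0.44, against 0.38. No marker of either list was below background on all arrays, and the part of these markers in the members' levels was not tested. Limma called 0 members (all genes 0%), with 2 members and 632 genes at an unadjusted p under 0.05. Without overlap between the 2 Gpr97-deficient and the 4 wild-type arrays, 6 members were higher (Ifi30, Ifitm6, Irf2, Irf2bp2, Mx2 and Oas1c, all genes 4.29%) and 1 lower (Irf5, all genes 6.47%). At least 2-fold apart was Ifitm6 alone, 1 member higher (all genes 0.525%) and 0 lower (all genes 1.64%). After injury 44 members were higher and 13 lower in Gpr97 deficiency, and after sham surgery 43 and 14. Limma called 0 in either (all genes 0% in both), with 0 members and 280 genes after injury and 1 member and 419 genes after sham at an unadjusted p under 0.05. The members' median was 0.080 with slide as a block and 0.032 without wild-type sham array 1, on which 29 members were lowest.

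Ifitm6 was at -1.44 and 0.08 on the Gpr97-deficient injured and sham arrays, against -1.59 and -2.76 on the wild-type injured and -4.67 and -3.65 on the wild-type sham arrays, of which the first was not above background. Both Gpr97-deficient arrays were above the 4 wild-type arrays, but the injured one by only 0.15 from its nearest. The difference was 2.49 over both surgeries (unadjusted p = 0.039, adjusted p = 0.994, limma), 4.24 after sham and 0.74 after injury. Without the Gpr97-deficient sham array it was 0.74, and with normexp correction 1.20. Neutrophil markers lay in a similar order, with a summed level of 4.82 and 5.91 on the Gpr97-deficient injured and sham arrays, against 4.94 and 3.68 on the wild-type injured and 1.91 and 1.39 on the wild-type sham arrays. Of 11 tested neutrophil markers 9 were higher in Gpr97 deficiency, with a median of 2.20, and Elane was below background throughout. Red blood cell markers summed to 6.01 and 8.06 on the Gpr97-deficient injured and sham arrays, with overlap between the genotypes. On the wild-type arrays they summed to 7.03 and 2.63 after injury and to 3.61 and 3.98 after sham. Their part in the Ifitm6 level was not tested.

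Mx2 was at -1.66 and -1.56 on the Gpr97-deficient injured and sham arrays, against -2.28 and -2.02 on the wild-type injured and -2.09 and -2.06 on the wild-type sham arrays. The 2 genotypes did not overlap, and the difference was 0.50 (unadjusted p = 0.029, adjusted p = 0.994, limma), or 0.01 with normexp correction. Oas1c was higher by 0.50, Ifi30 by 0.41, Irf2bp2 by 0.38 and Irf2 by 0.16. Irf5 was at -1.32 and -1.46 on Gpr97-deficient arrays, against -1.28 and -1.25 on wild-type injured and -1.21 and -0.38 on wild-type sham arrays, a difference of -0.36 that rests mainly on wild-type sham array 2 (-0.06 after injury). The 5 Irg genes were higher in Gpr97 deficiency, with a median of 0.42, but the median was -0.23 with slide as a block and -0.13 without wild-type sham array 1. The Oas median was 0.13, or -0.13 with normexp correction. That correction moved the median Gpr97 difference of all genes from -0.01 to -0.16.

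Genes that make, receive or relay interferon signals were looked at beside the members. Among ligands and receptors, 7 of 10 tested were higher and 3 lower after injury, with a median of 0.30, and 0 were called; Ifna4, Ifnb1, Ifnk and Ifnl3 were not above background on any array. Ifngr2, a chain of the interferon gamma receptor, was at 2.09, 1.58 and 2.43 on injured arrays, against 1.19, 1.15 and 1.03 on sham arrays, without overlap (change 0.91, adjusted p = 0.334). Ifngr1, the other chain, differed by 0.49. In the signalling list 8 of 10 were higher (median 0.14, 0 called). Stat3, which transmits cytokine signals such as interleukin 6, was at 4.86, 4.40 and 4.56 against 3.83, 3.08 and 3.38 (change 1.17, adjusted p = 0.257). Pias1, an inhibitor of cytokine signalling, differed by -0.39 and the kinase Jak1 by 0.22. Among nucleic acid sensors and adaptors 11 of 16 were higher (median 0.13, 0 called). Sting1, the adaptor of cytosolic DNA sensing, was at 1.29, 1.04 and 1.99 on injured arrays, against -0.02, -0.50 and -0.24 on sham arrays, without overlap (change 1.69, adjusted p = 0.262). Myd88, the Toll-like receptor adaptor, differed by 0.78, and Ddx58, the RNA sensor RIG-I, by 0.47.

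Other interferon-stimulated genes divided evenly, 17 of 32 higher and 15 lower after injury (median 0.04, 0 called). Rsad2, the antiviral enzyme viperin, was at 0.23, -0.30 and -0.01 on injured arrays, against 1.01, 1.17 and 0.69 on sham arrays, lower without overlap (change -0.98, adjusted p = 0.273). Cxcl10, a chemokine for T cells, was higher at 0.89, 1.31 and 0.83, against -0.07, -0.72 and 0.52 (change 1.10, adjusted p = 0.370). Herc6, the Isg15 ligase of mice, differed by 0.68. Antigen presentation genes were lower after injury in 13 of 17 (median -0.51, 0 called), and higher in Gpr97 deficiency in 17 of 17 (median 0.44, 0 called). Within slide 2, which holds both genotypes, 4 of the 17 were higher and 13 lower in Gpr97 deficiency (median -0.15). Their largest fitted t values for injury belonged to H2-Aa (-1.54), Psmb10 (0.50) and H2-Eb1 (-1.30), parts of class II molecules and, for Psmb10, of the immunoproteasome.

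The remaining members were Gbp1, now Gbp2b, Ifi202b, Ifi44l and Ifitm5, none above background on any array. In all, 10 members were not tested, 9 of them never above background, while 50 were above background on all 6 arrays and 7 on 2 to 5. A single probe measured 42 of the 67 genes. In the 17 genes with several usable probes, the probes' injury changes lay at most 0.47 apart.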

How the data were processed

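Total kidney RNA was labelled with Cy3 and hybridised to single-colour Agilent mouse arrays. The deposited scanner files hold intensity per spot, read per the file headers with Feature Extraction 10.7.1.1 (slide 1) and 10.7.3.1 (slide 2). The authors' deposited series values are log2, with medians of 6.07 to 6.09 and normalization unknown; they follow the scanner signals at a Spearman's rho of at least 0.9999 on each array and were an alternative. Limma is named, with no version, in the submitters' processing notes.

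Here log2 processed signal was scaled to each array's 75th percentile, control spots and outlier flags were dropped, and a gene needed a signal well above background on 2 arrays or more, and was read from its probe with the highest mean. Limma 3.58.1 in R 4.3.3 fitted genotype and surgery additively (3 residual degrees of freedom) or the 4 group means (2), with Benjamini-Hochberg adjustment over 19611 genes in each of 7 comparisons. The number of arrays limits the precision. In data simulated for injury over both genotypes on 19611 genes, 1, 24, 45 and 47 of 50 genes changed by 1, 2, 4 and 6 log2 units were called. So were 6 unchanged genes. The simulated spread did not depend on the change, so these counts may not hold for the arrays. There the tubular injury markers Krt20 and Timp1, with fitted changes of 8.32 and 4.65, were not called (limma, adjusted p = 0.249 for both). Where a level was not above background in a group, a lower bound of the fold was given.

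The members and gene lists were chosen with earlier results of these data known. Named by rule were Irf genes, Stat2, members at least 2-fold apart without overlap, otherwise the 2 largest injury changes of a family, and 3 genes a list by moderated t; other members and list genes were named after their values were seen. Of the members, 2 are counted but not reported here. Names follow the scanner files and RefSeq (GRCm38.p6): of 41174 probes, 27668 were named by accession, 6060 by symbol and 7446 by the file. Alternatives were normexp correction (offset 50), quantile normalization, the deposited values, other filters, averaged probes, a trended robust prior, slide as a block and leaving out each array.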

Additional observations from a re-analysis of the deposited data

Results flagged for a closer look

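The injury change of Ifitm6 went opposite ways in the 2 genotypes. It was -1.52 in the Gpr97-deficient pair, against 1.99 in wild type, where it was 1.92 on slide 1 and 2.06 on slide 2. On slide 1 the sham level was not above background. The difference between the genotypes was -3.51 log2 units, and the test of that difference did not pass adjustment over all genes (limma, unadjusted p = 0.0246, adjusted p = 0.99997). The Gpr97-deficient change rests on 1 array a group. On the Gpr97-deficient sham array, where Ifitm6 was highest, the granule gene Ltf was at -0.40, against -5.52 to -4.07 on the other 5 arrays. Of 11 tested neutrophil markers, 9 were higher on the Gpr97-deficient sham array than on the Gpr97-deficient injured array, and 2 were lower, Cxcr2 and Csf3r. Cxcr2 was at -4.11 on that sham array, against -3.30 on wild-type injured array 2. Csf3r was at -4.76, against -2.87 on wild-type injured array 1. Summed neutrophil, red blood cell and cell cycle markers were at their highest on the Gpr97-deficient sham array. Their part was not tested.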

How the results depend on the processing

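No member was called by limma in any of the 7 comparisons under any setting. Over all genes, injury over both genotypes called 1 with quantile normalization, 1 with the deposited values, 1 with slide as a block and 3 with the trended robust prior. That prior also called 1 gene for Gpr97 over both surgeries and 1 after injury. In what follows the share over all genes stands in brackets. Members at least 2-fold higher after injury without overlap numbered 2 (2.59%). They numbered 3 with quantile normalization (2.81%), 3 with the deposited values (2.79%) and 3 without a filter (1.95%). When all 6 arrays had to be above background there was 1 (2.35%). Leaving out each array gave 2 to 4, with 4 without wild-type injured array 1 (3.83%) or without the Gpr97-deficient sham array (3.27%). Lower ones numbered 0 (2.16%), or 1 with slide as a block (2.72%), and 0 to 7 leaving out each array. There were 7 without wild-type sham array 1 (3.28%), 2 without the Gpr97-deficient injured array (2.84%) and 1 without the Gpr97-deficient sham array (3.21%). Higher in Gpr97 deficiency stood 1 (0.525%), or 0 with normexp correction (0.0714%) and 0 when all 6 arrays had to be above background (0.234%). Leaving out each array gave 0 to 1, with 0 without the Gpr97-deficient sham array (1.40%). Lower in Gpr97 deficiency stood 0 (1.64%), or 2 without a filter (4.94%), both dim. Leaving out each array, the members' median injury change was -0.038 to 0.24, and the Gpr97 one 0.032 to 0.21, or 0.080 with slide as a block. The cause of these shifts was not tested. Normexp correction moved the median injury change of all genes from -0.04 to 0.20. Dim members, such as Gbp8 and Oas1b, have values limited by background. No paired analysis was possible because the numbers in the sample titles are not shared between groups.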

Other observations

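Cxcl9, a chemokine induced by interferon gamma, was at -5.79, -4.61 and -6.58 on the injured arrays, against -3.09, -6.46 and -1.42 on the sham arrays (Gpr97-deficient, wild-type 1, wild-type 2). Tgtp1, an Irg family GTPase whose name the member rule does not take, was at -0.19, -0.05 and -0.37 against 1.39, -0.24 and 2.41. Ciita, the activator of class II genes, was at -1.56, -1.49 and -1.87 against -0.68, -2.26 and 0.10. Each of these 3 genes, chosen after their values were seen, was highest on wild-type sham array 2 and next on the Gpr97-deficient sham array.

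Aim2, a cytosolic DNA sensor, had its own order, at -5.44, -4.42 and -3.72 on the injured arrays, against -5.24, -2.52 and -5.21 on the sham arrays. It was highest on wild-type sham array 1, the array on which most members were lowest.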
